A study of Mus musculus with 4 samples.

Results

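A set of 10 genes of the simple embryonic epithelium was followed in whole mouse embryos at embryonic days E8.5 and E10.5, in wild type (WT) and in embryos labelled as *Dyrk2* knockouts (Dyrk2-KO). It comprised the keratins *Krt8*, *Krt7*, *Krt18* and *Krt19*, the adhesion proteins *Cdh1* and *Epcam*, the claudins *Cldn4*, *Cldn6* and *Cldn7*, and the splicing regulator *Esrp1*. These are 10 of 24729 named genes on the array, taken wherever the gene name of a non-control spot matched, and they carried 14 of 56605 probes. RNA of C57BL/6 embryos (C57BL/6J in the study's methods) was hybridized to 4 one-colour Agilent arrays of 1 slide, with 1 array for each genotype and stage. The knockout was made with the CRISPR/Cas9 nickase system, which left short deletions in *Dyrk2*, and heterozygotes of several deletion lines were intercrossed. Neither the line used for the arrays nor the number of embryos behind each RNA is given in the sources used here. A deletion passed through the germline is present in every tissue of the embryo, not in its epithelium alone.

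Values are log2 of the processed intensity minus the 75th percentile of that array. Those of single genes were compared only between arrays for the same probe. A summed level adds the brightest probe of each gene in a list on a linear scale, so bright probes weigh most in it. Such sums were likewise compared only between arrays. A probe is called well above background where the scanner software marked it so, which held for 30226 to 31943 probes per array. Both *Dyrk2* probes were brighter on the arrays labelled Dyrk2-KO, 1.02-fold and 1.62-fold at E8.5, 1.21-fold and 1.57-fold at E10.5. The 1.02-fold difference lies within the SD of a log2 ratio from repeated spots at that stage (0.151), so its direction is not settled. A short deletion can leave a transcript that such probes still bind, so these values do not check the labels, and the arrays are named here as labelled. The Dyrk2-KO E10.5 array also stood apart in *Xist*, the RNA of the inactive X chromosome, which was well above background there and on none of the other 3 arrays. The brightest probes of the Y-linked genes named here for this check, *Ddx3y*, *Eif2s3y*, *Kdm5d* and *Uty*, showed the reverse, so the sex of the embryos differed between arrays.

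Simple epithelia are sheets of polarized cells that line the gut tube, the surface of the embryo, the yolk sac and many ducts. Their cytoskeleton is built from pairs of a type II keratin (K8 or K7) with a type I keratin (K18 or K19), their neighbours are held by E-cadherin (*Cdh1*) and EpCAM, and claudins form the tight junction strands that seal the space between cells. *Esrp1* encodes an RNA-binding protein that keeps splicing in the epithelial pattern. In an epithelial to mesenchymal transition this programme is turned off, and repressors of the ZEB and SNAI families are known to bind E-box sequences of the form CAGGTG in promoters such as that of *Cdh1*.

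Every one of the 10 genes was lower at E10.5 than at E8.5, in both genotypes. In WT *Krt8* and *Krt18* fell most, to a level 6.43-fold and 6.03-fold lower, and *Krt7* fell least, to a level 1.54-fold lower. No gene of the set reached a 1.5-fold difference between Dyrk2-KO and WT at either stage. Because whole embryos were used, a smaller share of epithelial cells and less RNA per epithelial cell cannot be told apart.

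The stretches upstream of the genes are shown first. RefSeq promoters (GRCm38.p6) were at hand for 7 of the 10 genes, namely *Krt8*, *Krt7*, *Krt18*, *Epcam*, *Cldn4*, *Cldn6* and *Cldn7*, and the 250 bases before the annotated start were read. The E-box CAGGTG, searched on both strands as CAGGTG or CACCTG, was found upstream of 7 of these 7 genes. It lay in 7 of their 8 promoters, since *Cldn7* has a pair of annotated starts and the first has none, while 17.2% of all 32851 promoters hold it in a window of the same length. The GC box GGGCGG (or CCGCCC), a motif bound by SP and KLF factors, was found in 5 of the 8 promoters of these genes and in 32.7% of all promoters, and neither *Krt8* nor *Krt18* had it. Neither TATAAA (or TTTATA), in 12.4% of all promoters, nor the Grainyhead motif ACCGGTT (or AACCGGT), in 0.831%, occurred in the windows of the 7 genes. No match overlapped a match of another motif. A match is a run of letters and was not tested as a binding site. Whether the matches have a part in the fall with stage was not tested. The sequences of *Krt8* and *Krt18*, whose fall was largest in WT, and of *Epcam*, *Cldn6* and the second *Cldn7* promoter are given 5′ to 3′ on the strand of the gene, with the E-box in capitals. They lie at chr15:102004343-102004592 (minus strand), chr15:102027966-102028215 (plus), chr17:87635729-87635978 (plus), chr17:23679115-23679364 (plus) and chr11:69965171-69965420 (plus) of GRCm38.p6.
Krt8: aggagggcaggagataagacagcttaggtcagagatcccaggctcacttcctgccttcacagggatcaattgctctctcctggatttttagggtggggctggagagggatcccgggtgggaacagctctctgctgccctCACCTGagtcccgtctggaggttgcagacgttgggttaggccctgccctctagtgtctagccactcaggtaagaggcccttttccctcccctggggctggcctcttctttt
Krt18: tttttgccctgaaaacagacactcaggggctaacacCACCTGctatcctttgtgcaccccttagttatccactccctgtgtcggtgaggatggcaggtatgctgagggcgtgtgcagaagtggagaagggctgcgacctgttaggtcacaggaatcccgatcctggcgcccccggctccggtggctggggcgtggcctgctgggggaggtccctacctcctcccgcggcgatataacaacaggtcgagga
Epcam: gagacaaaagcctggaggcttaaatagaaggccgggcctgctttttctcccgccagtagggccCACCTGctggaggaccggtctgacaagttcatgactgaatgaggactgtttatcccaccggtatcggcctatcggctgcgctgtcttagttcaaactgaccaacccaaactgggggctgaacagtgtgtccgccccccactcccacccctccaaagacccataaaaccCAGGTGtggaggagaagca
Cldn6: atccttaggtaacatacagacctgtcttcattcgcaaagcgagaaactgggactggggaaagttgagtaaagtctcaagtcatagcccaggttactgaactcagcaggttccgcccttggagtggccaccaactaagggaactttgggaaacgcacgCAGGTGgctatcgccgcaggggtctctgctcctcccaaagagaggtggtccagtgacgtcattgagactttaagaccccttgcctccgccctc
Cldn7: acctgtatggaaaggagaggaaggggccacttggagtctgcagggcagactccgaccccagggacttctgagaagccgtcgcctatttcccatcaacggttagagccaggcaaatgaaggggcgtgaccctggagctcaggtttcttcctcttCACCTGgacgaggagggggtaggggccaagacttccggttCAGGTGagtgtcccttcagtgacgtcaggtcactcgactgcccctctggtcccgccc
The E-box began 111 bases before the start in *Krt8*, 214 in *Krt18*, 93 in *Cldn6*, 44 in *Krt7* and 14 in *Cldn4*. *Epcam* had matches at 187 and 19 bases before its start and the second promoter of *Cldn7* at 97 and 57.

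**Figure D1:**
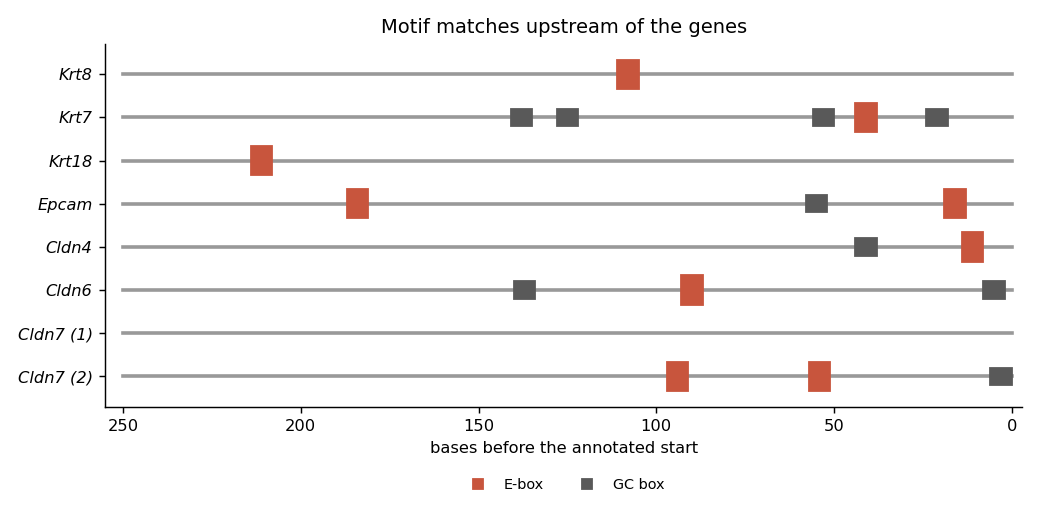
Positions of E-box matches (tall red boxes) and GC box matches (short grey boxes) in the 250 bases before each annotated start, which is at the right end of each line; the x axis counts bases before the start. An E-box lies in 7 of the 8 promoters, all but the first of *Cldn7*, and *Krt8* and *Krt18* have no GC box.

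Both keratin partners fell with stage. The *Krt8* probe that was brightest on average over the 4 arrays (mm9, chr15:101827138-101827197) read 5.52 in WT and 5.39 in Dyrk2-KO at E8.5, then 2.84 and 3.24 at E10.5. Both E8.5 arrays lay above both E10.5 arrays by more than 2 log2 units. The fall was 6.43-fold in WT and 4.42-fold in Dyrk2-KO. In the fit over all 4 arrays (limma, stage and genotype as terms) the stage difference of *Krt8* was −2.41 ± 0.14 (SE, log2) with an adjusted p of 4.8e-06. A second *Krt8* probe, placed just beside the first (chr15:101827214-101827273), read 5.55, 5.46, 2.59 and 3.17 in the same order and fell 7.78-fold and 4.91-fold, so both probes showed the larger fall in WT.

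*Krt18*, the type I partner of K8, lies 23873 bases from it on chromosome 15 (GRCm38.p6) in the opposite orientation. Its probe (chr15:101862341-101862400) read 6.53 in WT and 6.33 in Dyrk2-KO at E8.5, then 3.93 and 4.38 at E10.5. This is a fall of 6.03-fold in WT and 3.88-fold in Dyrk2-KO, with a limma stage difference of −2.27 ± 0.15 (SE, log2, adjusted p = 1.04e-05). The change of *Krt18* differed from that of the brightest *Krt8* probe by 0.09 (log2) in WT and 0.19 in Dyrk2-KO. Their genotype ratios differed by −0.06 at E8.5 and 0.04 at E10.5. The second *Krt8* probe fell further than *Krt18*, with log2 ratios of −2.96 in WT and −2.29 in Dyrk2-KO beside −2.59 and −1.96. How closely the partners moved together thus depends on the *Krt8* probe.

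*Krt19*, a type I keratin without a tail domain that also pairs with K8, read 2.20 and 2.54 at E8.5 (WT and then Dyrk2-KO) and 0.09 and 0.46 at E10.5. Its fall was almost equal in the genotypes, 4.31-fold in WT and 4.21-fold in Dyrk2-KO (limma −2.09 ± 0.13, SE, log2, adjusted p = 4.95e-06). *Krt7*, a type II keratin of ducts and glands, moved least. It read −0.07 and 0.09 at E8.5, then −0.70 and −0.66 at E10.5, a fall of 1.54-fold in WT and 1.68-fold in Dyrk2-KO (limma −0.69 ± 0.14, SE, log2, adjusted p = 0.0056). In WT this was just past the 1.5-fold threshold, and the WT log2 ratio was short of it without scaling between arrays (−0.44), with the normexp background correction (−0.54) and with the mean signal (−0.52). In Dyrk2-KO *Krt7* was short of it without scaling (−0.45) and with the spike-in scaling (−0.11), where its limma call was lost too.

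**Figure D2:**
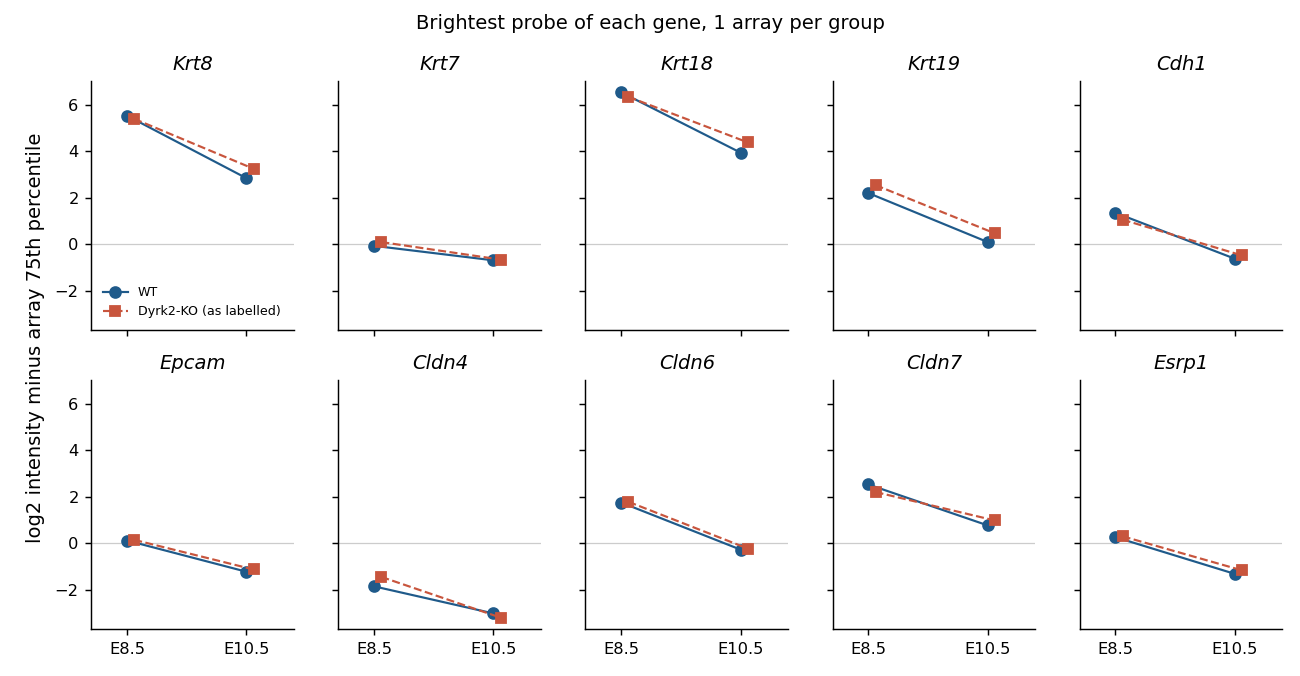
Log2 intensity relative to the array's 75th percentile (y axis, same scale in every panel) for the brightest probe of each gene at E8.5 and E10.5 (x axis), with WT as blue circles joined by a solid line and Dyrk2-KO as red squares joined by a dashed line, 1 array per point. All 10 genes are lower at E10.5 on both lines; levels are not comparable between genes, since each has its own probe.

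Among the adhesion genes, *Cdh1* (chr8:109193812-109193871) read 1.35 in WT and 1.05 in Dyrk2-KO at E8.5, then −0.63 and −0.49 at E10.5. The fall of this core cadherin of the epithelial adherens junction was 3.93-fold in WT and 2.90-fold in Dyrk2-KO (limma −1.76 ± 0.15, SE, log2, adjusted p = 4.13e-05). *Epcam*, a homophilic adhesion protein that stabilizes claudins, read 0.12 and 0.14 at E8.5, then −1.23 and −1.13 at E10.5. Its values differed between genotypes by at most 0.10 (log2) at either stage, and it fell 2.54-fold in WT and 2.42-fold in Dyrk2-KO (adjusted p = 0.00017, limma). The *Epcam* probe, of 60 bases like the others, maps across chr17:88048972-88049800 and so spans an exon junction, which leaves unspliced RNA out of its signal.

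The claudins fell as a group and differed in how alike the genotypes were. *Cldn6*, a claudin of embryonic epithelia, read 1.75 and 1.78 at E8.5, then −0.28 and −0.23 at E10.5, a fall of 4.07-fold in WT and 4.03-fold in Dyrk2-KO (adjusted p = 7.55e-06, limma). *Cldn7*, which associates with EpCAM, read 2.52 and 2.20 at E8.5, then 0.77 and 0.98 at E10.5. It was lower in Dyrk2-KO at E8.5 and higher at E10.5, so its fall was 3.38-fold in WT and 2.34-fold in Dyrk2-KO (adjusted p = 0.000111, limma). A second *Cldn7* probe did not rise well above background anywhere and gives no value. *Cldn4*, a receptor of a clostridial toxin, read −1.86 and −1.45 at E8.5, then −3.02 and −3.20 at E10.5. It fell less in WT, 2.24-fold, than in Dyrk2-KO, 3.36-fold, the opposite order to *Cldn7* (adjusted p = 0.00104, limma). This probe is dim, and its log2 ratio in Dyrk2-KO, −1.75 as reported, was −1.04 with the normexp background correction, −0.99 from the mean signal without background subtraction and −1.11 with the spike-in scaling, where WT fell more (−1.23).

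*Esrp1* read 0.26 in WT and 0.30 in Dyrk2-KO at E8.5, then −1.32 and −1.17 at E10.5 (chr4:11260208-11260267). It fell 2.99-fold and 2.75-fold (limma −1.52 ± 0.14, SE, log2, adjusted p = 7.05e-05). A dimmer *Esrp1* probe (chr4:11284629-11284688) read −3.11, −3.29 and −4.65 on the other 3 arrays and was not well above background on the Dyrk2-KO E10.5 array. It gave a fall of 2.90-fold in WT and of at least 2.78-fold in Dyrk2-KO, measured against the lowest signal well above background on that array. The remaining *Esrp1* probe did not rise well above background anywhere.

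Counted over the set, 10 of 10 genes were at least 1.5-fold lower at E10.5 in WT, where 18.3% of 16455 measured genes were lower by as much. In Dyrk2-KO 10 of 10 were lower, where 14.3% of 16210 genes were. With a Z-score of 2 required as well, 2 of 10 passed in WT and 2 of 10 in Dyrk2-KO. The share of all genes under both rules is not given here, so this count cannot be set against it. The median log2 ratio of the set was −1.87 in WT and −1.64 in Dyrk2-KO, a 3.65-fold and a 3.12-fold fall, against −0.09 and −0.07 over all measured genes. In limma 10 of 10 passed as lower at an adjusted p under 0.05, and 22.8% of 16011 genes tested were called lower. The set was chosen with earlier results of these data known, so its counts beside these shares describe it and do not test it. The order by fitted stage difference ran from *Krt8* (−2.41) through *Krt18*, *Krt19* (−2.09), *Cldn6* (−2.02), *Cdh1* (−1.76), *Esrp1*, *Cldn7* (−1.49), *Cldn4* (−1.46) and *Epcam* (−1.31) to *Krt7* (−0.69). Apart from *Epcam* and *Krt7*, neighbours in this order differed by less than the sum of their standard errors. The fit had 1 residual degree of freedom, which is the difference in stage change between the genotypes, and borrowed its spread from all probes. Its p-values measure only the spread between these 4 arrays. That spread may be technical and may also hold the difference in sex between arrays. When the arrays were scaled on their spike-in control probes instead, the differences stayed below 0 for all 10 genes (−2.13 to −0.40, log2) and 3 of 10, *Krt8*, *Krt19* and *Cldn6*, passed limma's threshold, while calls over all probes dropped from 35.3% to 8.15%.

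**Figure D3:**
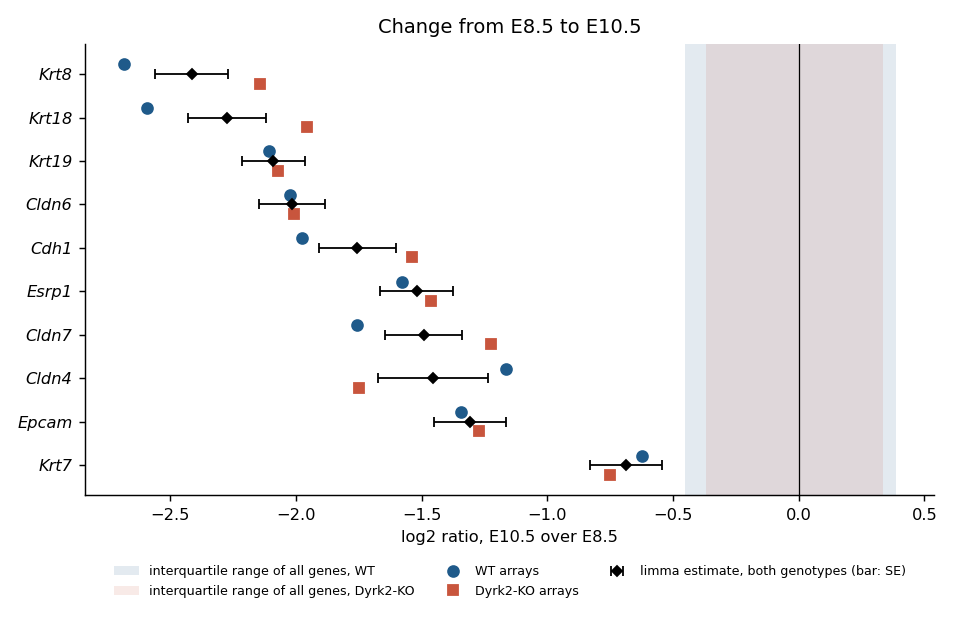
Log2 ratio of E10.5 over E8.5 (x axis) for each gene (y axis) in WT (blue circles) and Dyrk2-KO (red squares), 1 array per group and stage, with the limma estimate over both genotypes as a black diamond and its SE as the bar; shaded bands give the interquartile range of all measured genes. All 10 genes lie to the left of the bands, from −0.69 for *Krt7* to −2.41 for *Krt8* by the fitted estimate.

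Genotype left smaller differences. At E8.5, 0 of 10 genes differed by 1.5-fold between Dyrk2-KO and WT, where 9.66% of 15789 measured genes did. The log2 ratios ran from −0.32 for *Cldn7* to 0.41 for *Cldn4* with a median of 0.03, beside −0.03 over all genes. Repeated spots on these arrays put the SD of a log2 ratio at 0.151, which covers spot error alone. *Krt19* (0.34), *Cldn4* (0.41) and *Cldn7* (−0.32) lay past 2 such SD, and *Cdh1* (−0.30) just inside. The signs at E8.5 depend on the scaling: 6 of 10 ratios were above 0 as reported, 2 of 10 without scaling and 0 of 10 with the spike-in scaling, which also moved the median of all measured genes to −0.58. With the spike-in scaling 4 of 10 genes, *Krt8*, *Krt18*, *Cdh1* and *Cldn7*, were past 1.5-fold and lower in Dyrk2-KO, as were 48.7% of all measured genes.

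Erythrocyte markers differed between the E8.5 arrays by much larger folds than these genes did. Of 11 measured erythrocyte markers, 11 were at least 1.5-fold higher in Dyrk2-KO, where 4.23% of all measured genes were. They ran from *Epor* (1.41, log2) to *Hbb-y* (6.00). Their summed level in multiples of the 75th percentile was 17.4 in WT and 384 in Dyrk2-KO. Yolk sac endoderm markers went the other way at E8.5, with 7 of 13 at least 1.5-fold lower in Dyrk2-KO, a median log2 ratio of −0.59 and summed levels of 72.5 and 49.0, where 5.43% of all measured genes were lower by as much. Without scaling 12 of 13 were lower by that fold, where 14.1% of all measured genes were. With the spike-in scaling 13 of 13 were, where 48.7% of all measured genes were. Gut endoderm markers summed to 43.9 in WT and 32.8 in Dyrk2-KO, and surface ectoderm markers to 20.8 and 18.5. Their part in the ratios of the epithelial genes was not tested.

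At E10.5, 0 of 10 genes differed by 1.5-fold, where 6.77% of 16122 measured genes did. Of the 10, 9 lay above 0, where 53.8% of all measured genes lay below it, and the median log2 ratio was 0.15 against −0.02 over all genes. The upper end of the range was held by the keratins, with *Krt18* at 0.44, *Krt8* at 0.40 and *Krt19* at 0.37, all past 2 SD of a ratio from repeated spots (0.222 at this stage). *Cldn4* was the gene below 0 (−0.18), and *Krt7* (0.03), *Cldn6* (0.05) and *Epcam* (0.10) lay near 0. The second *Krt8* probe read 1.49-fold higher in Dyrk2-KO, close to the threshold. Without scaling between arrays 6 of 10 ratios were above 0. The spike-in scaling put 1 of 10 genes, *Krt18* (0.60, log2), past 1.5-fold, where 4.54% of all measured genes were higher by as much. The Dyrk2-KO array of this stage also differed in sex, and erythrocyte and neural markers differed between the same arrays. Of 12 erythrocyte markers 8 were at least 1.5-fold higher in Dyrk2-KO (median log2 ratio 1.11), where 2.76% of all measured genes were. Of 10 neural markers 3 were lower by as much (median −0.41), where 4.01% of all genes were. With the spike-in scaling 0 were, where 2.38% of all genes were, and without scaling 5 were, where 6.3% were. The part of these differences in the ratios of the epithelial genes was not tested.

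**Figure D4:**
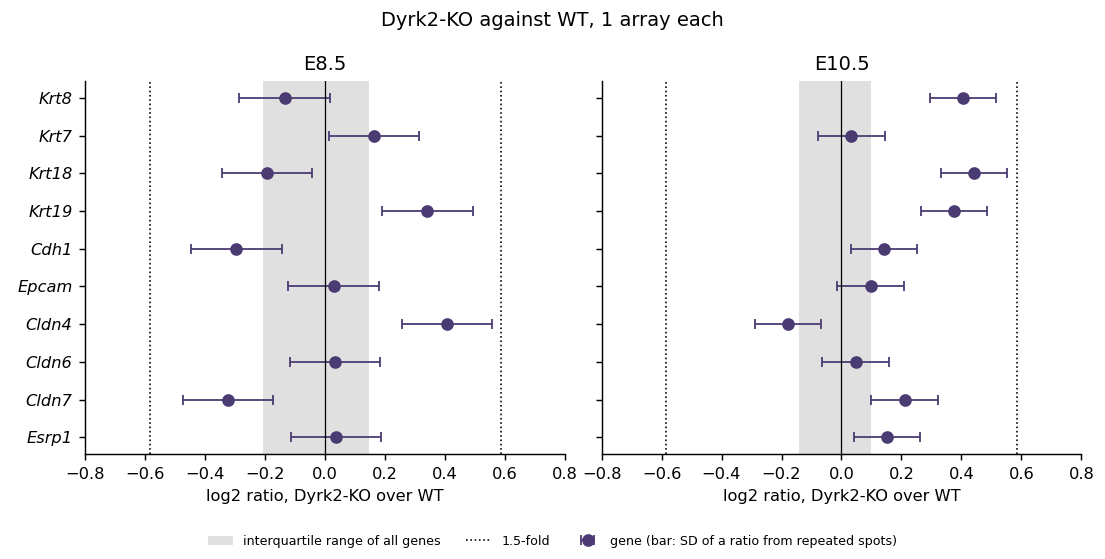
Log2 ratio of Dyrk2-KO over WT (x axis) for each gene (y axis) at E8.5 (left) and E10.5 (right), 1 array per group; bars give the SD of a ratio from repeated spots, the grey band gives the interquartile range of all measured genes and dotted lines mark 1.5-fold. No gene passes 1.5-fold at either stage, and *Krt8* and *Krt18* lie left of 0 at E8.5 and right of it at E10.5.

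Across both stages, 0 of 10 genes passed limma for genotype at an adjusted p under 0.05, where 0.0187% of 16011 genes did. At an unadjusted p under 0.05 there was 1 of 10, *Krt19*, higher in Dyrk2-KO at both stages by 0.36 ± 0.13 (SE, log2), with an adjusted p of 0.899. By the same count 5.46% of all genes were under it, so 1 of 10 is near that share. Without the intensity trend limma called 0 of the 10 and 0 probes in all, and *Krt19* was no longer under an unadjusted p of 0.05 there, with the spike-in scaling or without scaling.

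The stage fall itself differed between genotypes by up to 0.64 (log2). It was shallower in Dyrk2-KO for *Krt18* (by 0.64), *Krt8* (0.54), *Cldn7* (0.53) and *Cdh1* (0.44), and deeper for *Cldn4* (−0.59). For *Krt7* (−0.13), *Esrp1* (0.12), *Epcam* (0.07), *Krt19* (0.03) and *Cldn6* (0.01) it differed by less than 0.15 either way. Over the 14579 genes that were well above background everywhere this difference had an SD of 0.39 and 51.8% lay above 0. These directions depend on the scaling, since with the spike-in scaling the fall was shallower in Dyrk2-KO for all 10 genes. With 1 array per group the difference could not be tested.

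Other genes of the epithelial programme were read for stage in the same fit, where 22.8% of all genes tested were lower and 18.7% higher. The lowest and highest gene of a list are named among its genes well above background on every array. Of the genes left out by this, *Ocln*, *Crb3*, *Cldn2*, *Pkp1*, *Amn* and *Apoa4* had lower WT values than the lowest named and *Cldn13*, *Cldn15* and *Marveld3* higher ones than the highest, and all of these are named after their values were seen. Of 17 other tight junction and polarity genes, 14 passed limma as lower and 0 as higher, and the median log2 ratio in WT was −1.16. In WT *Lsr*, the lipoprotein receptor that recruits tricellulin to corners where several cells meet, had the lowest ratio (−2.19) and the polarity scaffold *Pard3* the highest (−0.27, adjusted p = 0.379 in limma). Of 13 further epithelial surface and protease genes 12 fell and 0 rose, with the membrane traffic GTPase *Rab25* lowest (−2.62 in WT) and *Erbb3*, a receptor also of neural crest, highest (−0.08). Of 12 desmosome genes 7 fell and 2 rose, the latter near the share of all genes. They ran from *Dsg2* (−2.20 in WT), a desmosomal cadherin of simple epithelia, to *Perp* (0.88), a desmosome protein of stratified epithelia. With the spike-in scaling 1 of the tight junction genes, 4 of the surface genes and 1 of the desmosome genes passed as lower, and the median of the desmosome genes in Dyrk2-KO turned from −0.34 to 0.30.

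Adherens junction genes other than *Cdh1* had a median log2 ratio of −0.38 in WT. Of 8 tested, 3 fell and 0 rose, where 22.8% of all genes tested were lower and 18.7% higher. They ran from *Nectin1* (−0.98 in WT) to *Cdh3* (0.14). Their median in Dyrk2-KO turned from −0.31 to 0.33 with the spike-in scaling, where 0 of them passed as lower. Among other claudins 5 of 14 fell and 4 rose, where 22.8% of all genes tested were lower and 18.7% higher. They ran from *Cldn9* (−1.80 in WT) to the endothelial claudin *Cldn5* (1.41). A further 5 listed claudins, *Cldn16*, *Cldn17*, *Cldn19*, *Cldn20* and *Cldn22*, did not rise well above background anywhere. *Cldn2* and the desmosome gene *Pkp1* were well above background at E8.5 alone and *Cldn13* and *Cldn15* at E10.5 alone, so each entered the test through the stage where it was high. Among other keratins 2 of 11 were lower and 2 higher, where 22.8% of all genes tested were lower and 18.7% higher, but the count of higher keratins was 6 without scaling, 3 with quantile normalization and 1 with the spike-in scaling. *Krt14*, a keratin of basal stratified epithelium, was higher at E10.5 (1.52 in WT, 1.16 in Dyrk2-KO), and the type I keratin *Krt23* was lower (−2.47 and −3.16). The median of the other keratins was above 0 in both genotypes under each of the 4 other scalings run, and that of the other claudins turned above 0 in both genotypes without scaling and in Dyrk2-KO with the spike-in scaling.

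Of 13 tested regulators of epithelial identity, 7 fell and 0 rose, where 22.8% of all genes tested were lower and 18.7% higher. *Rbm47*, an RNA-binding protein, was lowest (−1.78 in WT), and *Esrp2*, the paralogue of *Esrp1*, was highest (0.28, adjusted p = 0.612 in limma). *Grhl2*, a Grainyhead factor that activates *Cdh1* and claudin genes, was named after its values were seen. It read 0.61 and 0.72 at E8.5, then −0.56 and −0.55 at E10.5 (WT and then Dyrk2-KO), a difference with an adjusted p of 0.000191 in limma. Mesenchymal genes went the other way, with 9 of 16 higher and 1 lower. The fibrillar collagen *Col3a1* was highest (3.72 in WT) and fibronectin, *Fn1*, lowest (−0.88). The E-box repressors were also named after their values were seen, and they were not alike. *Zeb1* was higher at E10.5 by 0.87 in WT and 0.68 in Dyrk2-KO (log2, adjusted p = 0.00244, limma), whereas *Zeb2* differed by −0.05 and 0.02, *Snai1* by 0.14 and 0.03 and *Snai2* by −0.03 and 0.08. With the spike-in scaling 0 of the regulators passed as lower and 3 of the mesenchymal genes as higher.

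Among markers of the cell types that could carry these genes, those of yolk sac and gut endoderm were mostly lower at E10.5. Yolk sac endoderm, an extraembryonic epithelium, had 10 of 13 markers lower in limma and 2 higher, and its summed level was 72.5 and 49.0 at E8.5 (WT and then Dyrk2-KO) and 30.7 and 25.7 at E10.5. Gut endoderm had 7 of 10 lower and 1 higher, with summed levels of 43.9, 32.8, 16.9 and 15.0. In WT *Cubn*, the endocytic receptor of visceral endoderm, had the lowest yolk sac ratio (−5.17) and *Cdx2*, a hindgut factor that is also made in trophoblast, the lowest gut ratio (−5.83). Surface ectoderm had 3 of 8 lower and 2 higher, where 22.8% and 18.7% of all genes tested were, with summed levels of 20.8, 18.5, 14.1 and 13.8. Erythrocyte markers rose, with 12 of 12 higher and summed levels of 17.4, 384, 1378 and 1604, and 7 of 10 neural markers were higher. *Apoa4* of the yolk sac list was well above background at E8.5 alone, and *Nkx2-1* of the gut, *Epb42* of the erythrocyte and *Dcx* of the neural list at E10.5 alone. With the spike-in scaling 9 of the yolk sac, 3 of the gut and 0 of the surface ectoderm markers passed as lower, and the surface ectoderm median in Dyrk2-KO turned from −0.22 to 0.42. The part of these shifts in the fall of the epithelial genes was not tested. *Krt5*, *Krt14* and *Krt15* stand in both the surface ectoderm and the keratin list, and *Trp63*, *Tfap2a*, *Tfap2c* and *Grhl3* in both the surface ectoderm and the regulator list.

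**Figure D5:**
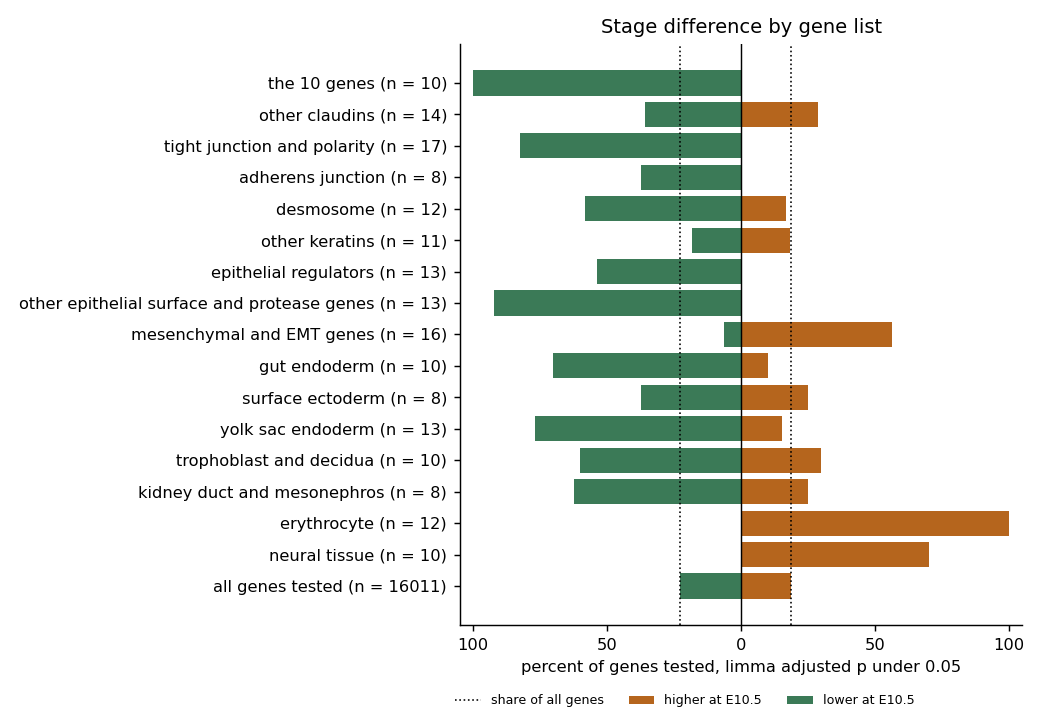
Percent of the genes tested in each list that passed limma at an adjusted p under 0.05 (x axis, higher at E10.5 to the right, lower to the left), with the number tested in brackets; dotted lines mark the share of all 16011 genes, 18.7% higher and 22.8% lower. The 10 epithelial genes and the surface and tight junction lists lie far to the left, and mesenchymal, neural and erythrocyte genes to the right.

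Among 14426 genes outside the lists that were well above background everywhere, genes near to the mean profile of the 10 genes, by Euclidean distance of centred log2 values, were *Hand1* (0.04), *Prdm6* (0.05), *Popdc2* (0.06) and *Gm20362* (0.08). The 10 genes themselves lay between 0.18 (*Esrp1*) and 1.02 (*Krt7*) from it, and 1250 other genes lay within that range, whose upper end *Krt7* sets.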

How the data were processed

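RNA extracted with TRIzol was amplified, labelled with Cy3 and hybridized to 4 one-colour arrays. The authors deposited each array's scanner output, with intensity values from Feature Extraction 10.7.1.1 per the file headers (9.5.1.1 in the submitters' processing notes). This intensity has its background subtracted and no scaling across arrays. A deposited series table, linear too, matched quantile-normalized intensities (median absolute log2 difference 0.0064).

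Here control spots and outlier spots were left out, log2 intensities of a probe's spots were averaged and each array's 75th percentile was subtracted. Of 62976 spots 0 were saturated, and each member probe had 1 spot per array. The probe of highest mean over the arrays stood for a gene (its brightest), which counted as measured in a pair if 1 or both arrays had it well above background. With 1 array per group no p was computed between 2 arrays, and a fold of 1.5 was the threshold. Stage and genotype were tested with limma 3.58.1 (lmFit, eBayes with an intensity trend) over the 32289 probes that 2 or more arrays detected well above background, and p-values were adjusted over all of them (Benjamini-Hochberg). A list was described by counts and its median. The limma fit and the fold threshold were run on simulated arrays with known changes and independent noise. The simulation held no difference in scaling, sex or tissue make-up between arrays, so it does not cover these.

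The members and lists were chosen with earlier results of these data known. Named genes were all members, the highest and lowest gene of each list among those well above background on every array, *Dyrk2*, the sex-linked genes of the check on samples and the 5 genes of most similar pattern (1 of them is not reported here); others are marked as named after their values were seen. Alternatives were quantile, spike-in (7 of 10 control probes used) or no scaling, normexp with an offset of 50, the deposited table, the mean signal without background subtraction, stricter and no filters, the mean over a gene's probes, a 2-fold threshold, a Z-score of 2 and limma without trend. Probe coordinates are mm9 from the array annotation. Python 3.11.15, pandas 2.3.3 and R 4.3.3 were used.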

Additional observations from a re-analysis of the deposited data

Results flagged for a closer look

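For 5 of the 10 genes the difference between Dyrk2-KO and WT had opposite signs at the 2 stages, as it had for 52.1% of 14579 genes well above background everywhere. In log2 ratios of Dyrk2-KO over WT at E8.5 and then E10.5, *Krt8* was at −0.14 and 0.40, *Krt18* at −0.19 and 0.44, *Cdh1* at −0.30 and 0.14, *Cldn7* at −0.32 and 0.21, and *Cldn4* at 0.41 and −0.18. *Cldn4* alone of the 5 went from higher to lower. Each sign rests on 1 array per group and the difference between stages was not tested. With the spike-in scaling *Cldn4* was below 0 at both stages, the other 4 kept opposite signs there, and without scaling all 5 did. Over the set 9 of 10 had opposite signs with the spike-in scaling and 6 of 10 without scaling, beside 79.5% and 26.2% of those genes. With the normexp correction *Cldn4* was above 0 at both stages (0.32 and 0.01), and with the mean signal its E10.5 ratio was −0.01.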

How the results depend on the processing

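The number of arrays is a limit, since a fit that leaves out any of the 4 has no residual degree of freedom and could not be run. No paired analysis was possible because each group holds 1 array. Dim probes such as *Cldn4* are limited by signal over background, and the medians for stage were smaller in size with the normexp correction and the mean signal. Of 100 values for the counts and medians of the set under the alternatives, 84 stayed within 1.5-fold or the spot error of the reported value, and 16 moved. The median for genotype at E8.5, 0.03 as reported, turned below 0 without scaling and with the spike-in scaling, and slightly so with the normexp correction (−0.007), the mean signal (−0.0091) and the mean over the probes of a gene (−0.022), each with 5 of 10 ratios above 0. The spike-in scaling put the median of all genes at −0.58 at E8.5, 0.15 at E10.5, −0.16 for stage in WT and 0.57 for stage in Dyrk2-KO, where it was −0.03, −0.02, −0.09 and −0.07 as reported. It gave 4 members changed at E8.5 and 1 at E10.5, medians of the set of −0.52 and 0.31 for genotype and −1.004 for stage in Dyrk2-KO, and 3 members called by limma for stage. Without scaling the medians were −0.23 at E8.5, 0.0149 at E10.5, −1.68 for stage in WT and −1.34 in Dyrk2-KO. The normexp correction gave −1.71 and −1.26 for stage in WT and Dyrk2-KO, and the mean signal −1.67 and −1.23. With the Z-score beside the fold threshold 2 of 10 members passed for stage in WT and 2 of 10 in Dyrk2-KO, where 10 of 10 passed by fold alone. The share of all genes under this rule is not given here. The causes were not tested. No member passed limma for genotype under any of the 10 alternatives run.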

Other observations

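Of 8 kidney duct and mesonephros markers 5 were lower at E10.5 in limma and 2 higher, from *Pax8* (−1.97 in WT, −2.54 in Dyrk2-KO) to *Wt1* (2.51 in Dyrk2-KO), and the summed level of the list was 13.9 and 14.1 on the E8.5 arrays (WT and then Dyrk2-KO) and 18.1 and 15.98 on those of E10.5. Of all genes tested 22.8% were lower and 18.7% higher. With the spike-in scaling 1 of the kidney markers passed as lower and 2 as higher. Of 10 trophoblast and decidua markers tested 6 were lower and 3 higher, and 4 and 1 with the spike-in scaling. *Prl8a2*, *Elf5* and *Rhox9* among those lower were well above background at E8.5 alone and entered the test through that stage. The summed level of the list was 17.3 and 12.3 at E8.5, then 17.5 and 20.4 at E10.5. *Gcm1*, named after its values were seen, made up most of these sums (3.83, 3.16, 3.97 and 4.22, log2, in the same order). The sums thus do not stand for the list as a whole. *Tpbpa* and *Prl8a9* did not rise well above background anywhere.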
